A study of Mus musculus with 8 samples.

Results

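Genes of the hypoxia response and of glycolysis were examined in lumbar intervertebral discs of mice with proteoglycan-induced spondylitis, an autoimmune inflammation of the spine. The set holds 41 genes chosen by their known roles: 17 glycolytic enzymes, 7 transporters and regulators of glycolysis, 7 subunits and regulators of the hypoxia-inducible factors (HIF), and 10 other hypoxia-inducible genes. A gene was measured by the probe sets whose platform annotation names it alone, which gave 37 genes with 87 probe sets, out of 18193 genes in all. Gpi1, Gapdh, Eno1 and Bnip3l had no such probe set outside the array controls and are not analysed here, apart from the control probe sets of Gapdh.

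All samples were total RNA of 6 pooled discs of levels L1 to L6 from female BALB/c mice. The 5 immunized samples came from mice given cartilage proteoglycan (100 µg of protein) with 2 mg of dimethyldioctadecylammonium bromide as adjuvant on days 0, 21 and 42. The 3 naive samples came from mice of matched age that received neither. The titles call the replicates biological, but for naive replicate 3 and immunized replicate 1 the description joins 2 sample numbers. Whether those samples pool several mice is not stated. Groups differ in antigen and adjuvant at once, so the effects of these cannot be told apart.

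Discs lack blood vessels over most of their volume, and their cells live at low oxygen and make much of their ATP by glycolysis. When oxygen is present, prolyl hydroxylases of the EGLN family mark the HIF alpha subunits for binding by VHL and for degradation. At low oxygen the alpha subunits persist, pair with ARNT and bind hypoxia response elements, whose core is ACGTG or GCGTG. Their targets include glucose transporters, glycolytic enzymes, Vegfa and Egln3 itself. In cells of the nucleus pulposus, the centre of the disc, HIF-1 is known to be active also under ordinary conditions.

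Each value is log2 expression minus the 8-array median of its probe set, averaged over the probe sets of a gene. A difference of 1 between groups is a doubling, and levels of different genes cannot be set against each other. The spacing of the deposited numbers gives a coarse level: 33 of the 37 genes had a probe set whose lowest array was at 8 or more on the log2 scale, and the other 4 (Slc16a3, Adm, Ankrd37 and Hif3a) had one at 4 to 8. All 8 chondrocyte markers and 5 of 6 nucleus pulposus markers were in the higher class too. So were all 11 skeletal muscle markers and 5 of 8 macrophage markers. In bulk tissue, fewer cells of a type and less RNA per cell cannot be told apart. The Gapdh control probe sets at the 5′ and 3′ ends of the transcript are likewise each relative to their own 8-array median. On that scale the 5′ value minus the 3′ value was -0.57 in immunized replicate 5 and -0.09 to 0.20 in the other samples. The same difference for actin was -0.19 in immunized replicate 5 and -0.02 to 0.17 elsewhere.

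Egln3 and Pfkfb3 fell in immunized discs, and no other member passed the test. The test was limma over all 18193 genes, two-sided, with a Benjamini-Hochberg adjusted p under 0.05. It called 4.68% of all genes lower and 4.46% higher, against 2 (5.41%) and 0 of the 37 members, so the share called lower is near the background. Higher genes made up 48.8% of all calls, and 59.5% after quantile normalization. At an unadjusted p under 0.05, 13 members were lower (35.1%, against 18.2% of all genes) and 1, Pfkfb4, was higher (12.9% of all genes). The difference was below 0 in 32 of 37 members (86.5%), against 56.1% of all genes, and above 0 in 5, against 43.9%. Its median was -0.20, against -0.04 in all genes. Groups did not overlap in 4 members, Egln3, Pfkfb3, Epas1 and Hif3a, all lower in immunized discs (10.8%, against 14.0% of all genes), and 0 members were parted the other way (9.39% of all genes).

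**Figure D1:**
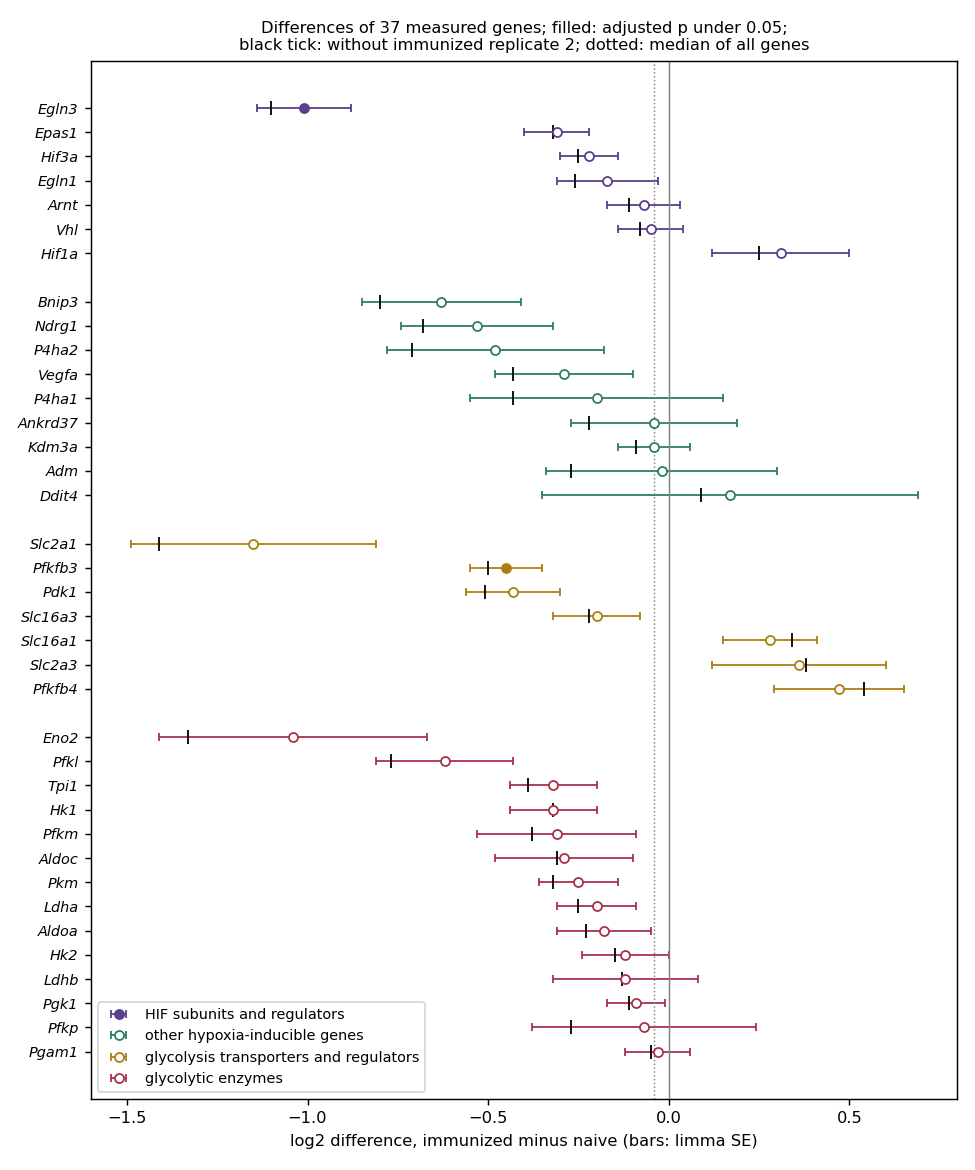
Log2 difference (immunized minus naive, horizontal axis) of each of the 37 measured genes, grouped by role, with limma's standard error as bars. Filled points are the 2 genes with an adjusted p under 0.05, Egln3 and Pfkfb3, black ticks give the difference without immunized replicate 2, and the dotted line is the median of all genes (-0.04).

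Among the HIF subunits and their regulators, Egln3 showed the strongest difference. It encodes the prolyl hydroxylase PHD3, an oxygen sensor whose gene is itself a target of HIF. Its values were 0.74, 0.80 and 0.82 in naive replicates 1 to 3, and -0.28, 0.12, -0.36, -0.49 and -0.12 in immunized replicates 1 to 5. The naive samples lay close together and far above every immunized sample. Egln3 fell by 1.01 ± 0.13 on the log2 scale (SE, 5 immunized against 3 naive samples, limma adjusted p = 0.01), which is 2.02-fold higher expression in naive discs. Its 2 probe sets differed by -1.25 and -0.78, and each passed singly over all probe sets (limma adjusted p = 0.00881 and 0.0207). The call was lost in limma without naive replicate 2 (adjusted p = 0.0589) and without both samples whose descriptions join 2 numbers (0.145). It held in each of the other 7 settings that left out 1 sample.

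The 250 bases before the start of Egln3 are shown because this gene fell most clearly. The sequence is that of the RefSeq table of GRCm38.p6, chr12:54203875-54204124, minus strand, written 5′ to 3′ in the gene's direction. Capitals mark the letters ACGTG, which lie 229 bases before the start.
Egln3: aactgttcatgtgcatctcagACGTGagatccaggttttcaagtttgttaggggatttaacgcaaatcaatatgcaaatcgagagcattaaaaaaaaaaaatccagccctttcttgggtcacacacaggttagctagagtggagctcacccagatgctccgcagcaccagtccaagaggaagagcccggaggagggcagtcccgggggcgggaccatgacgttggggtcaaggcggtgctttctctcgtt

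Epas1 and Hif3a encode the alpha subunits HIF-2 alpha and HIF-3 alpha. Epas1 was at 0.17, 0.23 and 0.18 in naive samples and at -0.08, -0.06, -0.33, 0.04 and -0.13 in immunized samples. The groups did not overlap, but the difference of -0.31 ± 0.09 missed the threshold (limma adjusted p = 0.0669). Hif3a was at 0.16, 0.14 and 0.14 in naive samples and at -0.04, 0.07, -0.05, -0.15 and -0.19 in immunized samples. Here too the groups parted, with a difference of -0.22 ± 0.08 that did not pass (limma adjusted p = 0.102). The 6 probe sets of Hif3a ranged from -0.55 to -0.01, and 1 of them passed singly (-0.55, limma adjusted p = 0.0475). The lowest array of that probe set was below 4 on the log2 scale, near the floor. Without probe sets with an array below 4, Hif3a differed by -0.18 (limma adjusted p = 0.152).

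Hif1a, the alpha subunit best known for driving glycolytic genes, differed the other way, by 0.31 ± 0.19 (limma adjusted p = 0.308). Its values overlapped: -0.56, -0.33 and 0.13 in naive samples and 0.35, 0.31, -0.16, 0.09 and -0.30 in immunized samples. The 4 probe sets of Hif1a disagreed in size, from 0.01 to 0.71. HIF-1 alpha is controlled mainly through the stability of the protein, which these arrays do not measure. The partner subunit Arnt (-0.07 ± 0.10), the ubiquitin ligase component Vhl (-0.05 ± 0.09) and the main oxygen sensor Egln1 (-0.17 ± 0.14) overlapped between groups, with adjusted p of 0.703, 0.751 and 0.441 in limma.

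**Figure D2:**
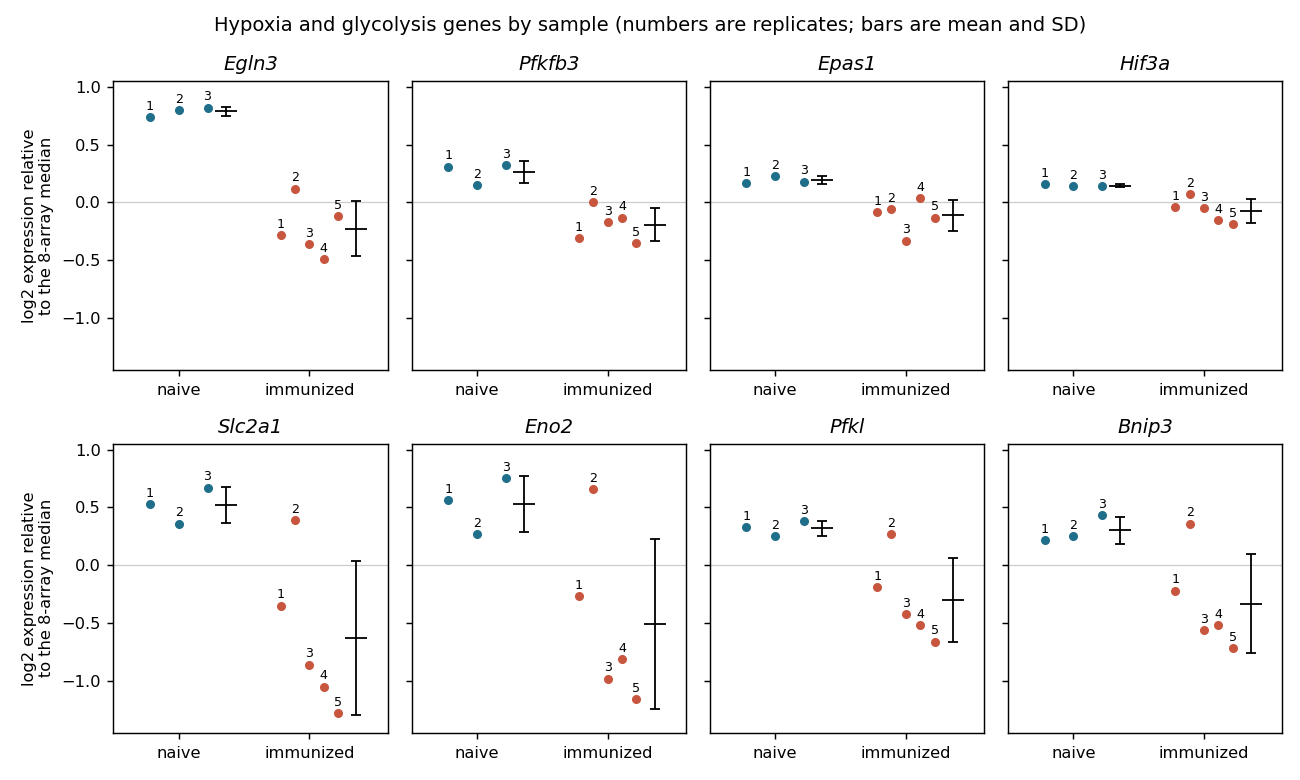
Log2 expression above or below the 8-array median (vertical axis) of 8 genes in each naive (blue) and immunized (red) sample; numbers are replicates, and the bars beside the points are the mean and SD. Groups part in Egln3, Pfkfb3, Epas1 and Hif3a, whereas in Slc2a1, Eno2, Pfkl and Bnip3 immunized replicate 2 lies among or next to the naive samples.

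Of the 9 measured members among the other hypoxia-inducible genes, 0 passed limma's adjusted threshold. At an unadjusted p under 0.05, 2 (Bnip3 and Ndrg1) were lower and 0 higher, against 18.2% and 12.9% of all genes, so the count is near the background. Bnip3 encodes a mitochondrial protein that promotes removal of mitochondria. It was at 0.22, 0.25 and 0.43 in naive samples and at -0.22, 0.36, -0.56, -0.52 and -0.72 in immunized samples. Immunized replicate 2 lay between naive samples and the other 4 lay below all of them, giving a difference of -0.63 ± 0.22 (limma adjusted p = 0.0959). Ndrg1, a stress-responsive gene induced by low oxygen, differed by -0.53 ± 0.21 (limma adjusted p = 0.127), and its 5 probe sets lay between -0.59 and -0.40. Immunized replicate 2 (0.41) was again above naive replicates 1 (0.18) and 2 (0.29).

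The collagen prolyl hydroxylase subunits P4ha2 and P4ha1, needed for stable collagen helices, differed by -0.48 ± 0.30 and -0.20 ± 0.35. P4ha2 was at 0.10 to 0.38 in naive samples, and immunized samples ran from -0.77 to -0.10 apart from replicate 2 at 0.69. Vegfa, the main growth factor of blood vessels, differed by -0.29 ± 0.19 (limma adjusted p = 0.340), from -0.02 to 0.46 in naive and from -0.33 to 0.53 in immunized samples. Adm, the vasodilator peptide adrenomedullin, was at 1.13 in immunized replicate 2 and between -0.35 and 0.27 in the other immunized samples. Naive samples of Adm ran from -0.08 to 0.46, and its group means were nearly equal (-0.02 ± 0.32). Differences were small beside their errors in Ankrd37 (-0.04 ± 0.23), a HIF target of little known function, and in the histone demethylase Kdm3a (-0.04 ± 0.10).

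Ddit4, an inhibitor of mTORC1 signalling that responds to low oxygen and to glucocorticoids, differed by 0.17 ± 0.52 (limma adjusted p = 0.848). Naive replicate 1 held -1.93, far below the remaining naive values of 0.48 and 0.52, and immunized samples ran from -0.51 to 0.31. The sign rests on naive replicate 1: without it the difference was -0.64, and it was also below 0 after quantile normalization (-0.10) and with array weights (-0.28).

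Of the 7 members that move glucose and lactate or set the pace of glycolysis, Pfkfb3 alone passed in limma. Differences were above 0 in 3 that did not pass, as in 43.9% of all genes. Pfkfb3 makes the sugar phosphate that is the main activator of phosphofructokinase. Its values were 0.31, 0.15 and 0.32 in naive samples and -0.31, -0.00, -0.17, -0.13 and -0.35 in immunized samples, with no overlap. Pfkfb3 fell by 0.45 ± 0.10 (SE, limma adjusted p = 0.0308). Its 2 probe sets differed by -0.66 and -0.24, and the first alone passed (limma adjusted p = 0.0459 and 0.157). The call held in 1 of the 8 settings that left out a sample, that without immunized replicate 2 (0.0120), and the adjusted p over those settings reached 0.0827. The call was also lost without both samples with joined numbers (0.180), after quantile normalization (0.0565) and with the probe sets of the highest level class alone (-0.24, 0.133). Pfkfb4, which makes the same activator or removes it, differed by 0.47 ± 0.18 the other way (limma adjusted p = 0.122). Its highest immunized values, 0.55 and 0.52, were in replicates 3 and 5.

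Slc2a1 encodes the glucose transporter GLUT1, a standard HIF-1 target that is abundant in the nucleus pulposus. It was at 0.53, 0.36 and 0.67 in naive samples and at -0.35, 0.39, -0.86, -1.05 and -1.28 in immunized samples. The immunized samples spread over 1.68, against 0.32 among naive samples, and replicate 2 sat at the naive level. The difference was -1.15 ± 0.34, or 2.22-fold higher in naive discs, and did not pass (limma adjusted p = 0.0620). All 3 probe sets gave nearly the same difference, -1.21 to -1.11. Slc2a3, the transporter GLUT3 of neurons and leukocytes, differed by 0.36 ± 0.24 (limma adjusted p = 0.347) and was highest in immunized replicate 3 (0.97).

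Pdk1, the kinase that keeps pyruvate out of mitochondria, differed by -0.43 ± 0.13 (limma adjusted p = 0.0662), and its 4 probe sets lay between -0.70 and -0.27. It ranged from 0.12 to 0.46 in naive samples and from -0.31 to 0.20 in immunized samples, replicate 2 being the one that overlapped. The lactate exporter Slc16a3, a HIF target, differed by -0.20 ± 0.12, and Slc16a1, the transporter that carries lactate in either direction, by 0.28 ± 0.13. Neither passed (limma adjusted p = 0.269 and 0.177).

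The promoters of Pfkfb3 (both annotated starts) and Hif3a are shown as those of the remaining members with parted groups that hold either core motif. The promoter of Epas1 was not analysed here. Those of Slc2a1 and Bnip3 were added after their values were seen, as known HIF targets whose values moved alike across samples. Each is the 250 bases before a start in RefSeq's GRCm38.p6, in the gene's direction, with ACGTG or GCGTG on either strand in capitals. ACGTG on the other strand reads CACGT and GCGTG reads CACGC, and CACGTG holds ACGTG on both strands at once. The windows are chr2:11553930-11554179 and chr2:11502091-11502340 (Pfkfb3, minus strand), chr7:17062428-17062677 (Hif3a, minus), chr4:119108495-119108744 (Slc2a1, plus) and chr7:138909507-138909756 (Bnip3, minus).
Pfkfb3, start 1: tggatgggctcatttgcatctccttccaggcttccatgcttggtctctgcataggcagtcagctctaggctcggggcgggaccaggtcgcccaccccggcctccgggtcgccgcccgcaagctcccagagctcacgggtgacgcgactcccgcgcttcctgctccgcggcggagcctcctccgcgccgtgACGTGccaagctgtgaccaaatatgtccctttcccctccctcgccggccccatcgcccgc
Pfkfb3, start 2: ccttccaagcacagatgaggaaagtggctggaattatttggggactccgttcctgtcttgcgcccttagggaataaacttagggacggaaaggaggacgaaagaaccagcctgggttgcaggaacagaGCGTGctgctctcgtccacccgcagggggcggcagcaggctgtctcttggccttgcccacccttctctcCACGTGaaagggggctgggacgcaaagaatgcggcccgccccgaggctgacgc
Hif3a: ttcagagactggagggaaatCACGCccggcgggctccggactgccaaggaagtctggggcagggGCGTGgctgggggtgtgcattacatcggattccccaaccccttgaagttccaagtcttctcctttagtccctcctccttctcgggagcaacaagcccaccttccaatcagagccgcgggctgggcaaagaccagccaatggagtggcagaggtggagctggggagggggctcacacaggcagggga
Slc2a1: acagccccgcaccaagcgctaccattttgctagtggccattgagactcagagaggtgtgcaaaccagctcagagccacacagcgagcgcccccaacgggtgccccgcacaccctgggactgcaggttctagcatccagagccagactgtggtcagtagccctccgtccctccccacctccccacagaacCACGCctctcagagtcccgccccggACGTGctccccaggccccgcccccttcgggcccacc
Bnip3: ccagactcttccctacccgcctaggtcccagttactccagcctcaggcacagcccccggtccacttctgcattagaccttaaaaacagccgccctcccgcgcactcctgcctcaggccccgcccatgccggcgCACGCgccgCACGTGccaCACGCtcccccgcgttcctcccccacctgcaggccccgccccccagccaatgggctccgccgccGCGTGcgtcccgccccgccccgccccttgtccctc

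In Slc2a1, ACGTG lay 36 bases before the start, and in Bnip3 CACGTG began 108 bases before it. In Pfkfb3 ACGTG lay 60 bases before start 1, and CACGTG began 53 bases before start 2. Of the 41 members, 37 had a promoter in the table, with 53 starts in all. Either core motif was in 41 of those 53 windows (77.4%), against 38.6% of all 32851 promoters and 48.9% of the 18109 promoters of genes measured here. ACGTG alone was in 23 windows (43.4%), against 16.6% and 19.5%. The members include genes known as HIF targets, so this share is a description of the list, and a match is not evidence of binding. Either motif was in 21 of 28 windows of the glycolytic enzymes (75.0%) and in 8 of 11 windows of the other hypoxia-inducible genes (72.7%). Counted by gene, 14 of the 17 enzymes and all 8 other genes with a promoter had a window with either motif. So did 7749 of the 14452 measured genes with a promoter, and genes with more starts have more windows.

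Among glycolytic enzymes, 0 of 14 measured members passed limma's adjusted threshold. At an unadjusted p under 0.05, 5 (Pfkl, Eno2, Tpi1, Hk1 and Pkm) were lower and 0 higher, against 18.2% and 12.9% of all genes. All 14 differences were below 0, against 56.1% of all genes. The sizes spread from -1.04 in Eno2 to -0.03 in Pgam1. Eno2, the gamma form of enolase known from neurons and also induced by low oxygen, was at 0.56, 0.27 and 0.75 in naive samples and at -0.27, 0.66, -0.98, -0.81 and -1.16 in immunized samples. Its order of samples was like that of Slc2a1, with replicate 2 among the naive values, and the difference was -1.04 ± 0.37 (limma adjusted p = 0.102).

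Pfkl, the liver form of phosphofructokinase, was at 0.33, 0.25 and 0.38 in naive samples and at -0.19, 0.27, -0.42, -0.52 and -0.66 in immunized samples. Again 4 immunized samples lay below all naive ones and replicate 2 lay among them. The difference was -0.62 ± 0.19 (limma adjusted p = 0.0694), and its probe sets disagreed, with -0.93 and -0.82 in 2 of them and -0.12 in the other. The muscle form Pfkm (-0.31 ± 0.22) and the platelet form Pfkp (-0.07 ± 0.31) overlapped widely between groups. Pfkp was at 0.72 in immunized replicate 2 and at -0.80 in replicate 5.

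Other enzymes act on 3-carbon sugars and on pyruvate. Tpi1, triosephosphate isomerase, differed by -0.32 ± 0.12 with 3 probe sets between -0.34 and -0.31 (limma adjusted p = 0.111). Pkm, pyruvate kinase of most tissues, differed by -0.25 ± 0.11 and Ldha, the lactate dehydrogenase subunit induced by HIF-1, by -0.20 ± 0.11 (limma adjusted p = 0.144 and 0.236). Pgk1, which yields the pathway's earlier ATP, differed by -0.09 ± 0.08, Pgam1 by -0.03 ± 0.09 and the other lactate dehydrogenase subunit Ldhb by -0.12 ± 0.20. The Gapdh control probe sets, which were not tested, differed between group means by -0.07 at the 3′ end, -0.22 in the middle and -0.32 at the 5′ end. The 5′ value was -0.59 in immunized replicate 5 and between -0.21 and 0.10 in the other immunized samples, so the 5′ difference rests partly on that sample.

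Of the hexokinases, which commit glucose to the pathway, Hk1 differed by -0.32 ± 0.12 (limma adjusted p = 0.121), its 2 probe sets giving -0.58 and -0.06, and Hk2 by -0.12 ± 0.12. The aldolases Aldoa and Aldoc differed by -0.18 ± 0.13 and -0.29 ± 0.19. Skeletal muscle, which lies against the spine, is rich in Pfkm and Aldoa. The 11 muscle markers had a mean of -0.53, 0.29 and 0.08 in naive samples and of -0.23, 0.22, -0.36, 0.25 and -0.09 in immunized samples. Pfkm followed a like order, at -0.27, 0.50 and 0.13 in naive samples and at -0.46, 0.10, -0.61, 0.15 and -0.10 in immunized samples. None of the 11 muscle markers passed limma's adjusted threshold or an unadjusted p under 0.05, their median difference was -0.02, and their part in the values of Pfkm was not tested.

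**Figure D3:**
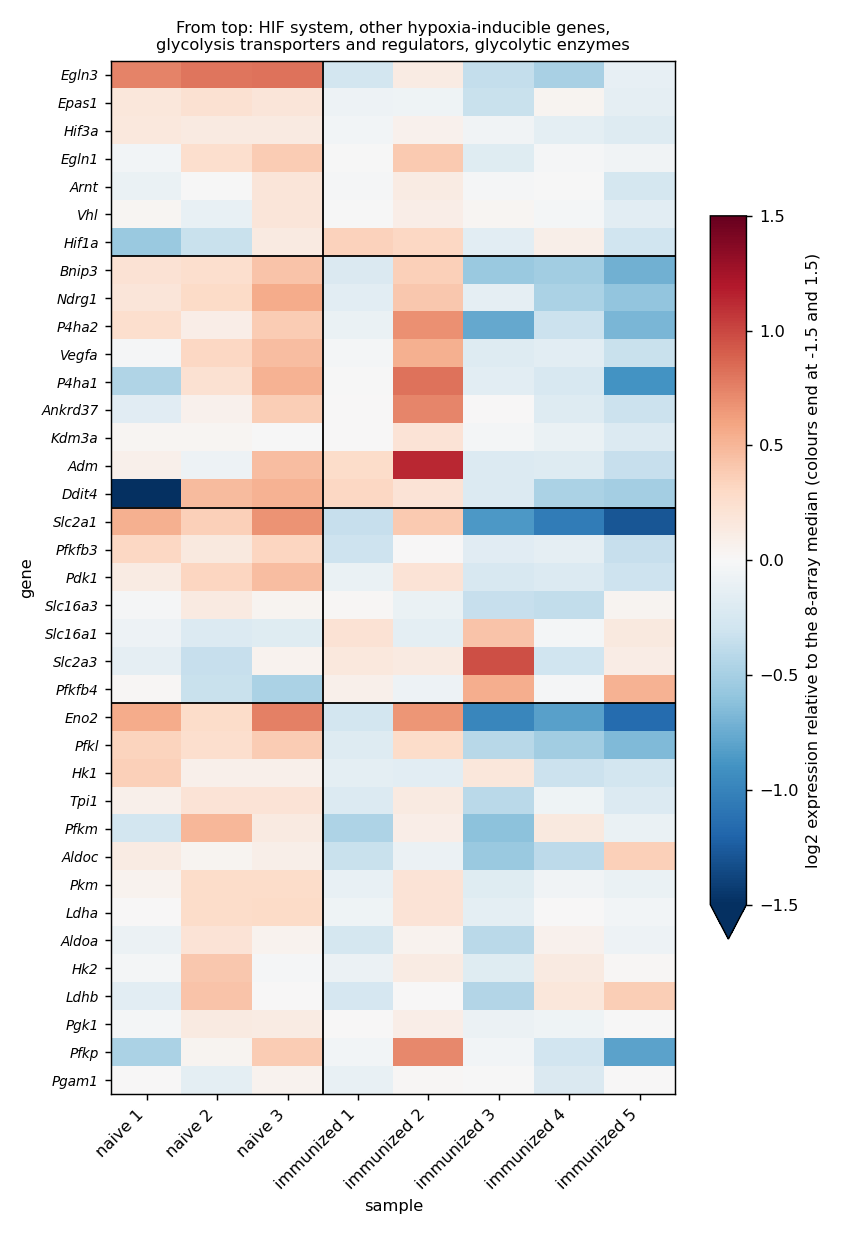
Log2 expression above or below the 8-array median (colour, red above and blue below) of the 37 genes (rows, in blocks by role) in the 8 samples (columns). Immunized replicate 2 is red in much of the hypoxia-inducible and enzyme blocks where the other immunized samples are blue, and naive replicate 1 is blue in Ddit4, Hif1a, P4ha1 and Pfkp.

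Set side by side, the enzymes and the other hypoxia-inducible genes had nearly the same median difference, -0.22 for the 14 enzymes and -0.20 for the 9 other genes, without a test between them. Single samples moved both. The enzymes had a median of -0.14 without naive replicate 2. The other genes had one of -0.48 without naive replicate 1, of -0.43 without immunized replicate 2, of -0.05 without naive replicate 3 and of -0.00 without immunized replicate 5. Their spread over samples was not the same. The mean of the 14 enzymes lay between 0.03 and 0.21 in naive samples and between -0.31 and 0.17 in immunized samples. The mean of the 9 other genes was -0.20, 0.19 and 0.41 in naive samples and 0.01, 0.56, -0.25, -0.30 and -0.51 in immunized samples. In the latter set the highest and lowest of all 8 samples were both immunized samples, replicates 2 and 5. The 7 transporters and regulators had a median of -0.20 and the 7 genes of the HIF system one of -0.17.

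Immunized replicate 2 was the highest of the 5 immunized samples in 24 of the 37 members (64.9%), against 29.1% of all genes. The share was 8 of 9 in the other hypoxia-inducible genes, 5 of 7 in the HIF system, 8 of 14 in the enzymes and 3 of 7 in the transporters and regulators. Replicate 5 was the lowest of the 5 in 18 members (48.6%), against 21.0% of all genes. It was so in 8 of 9 other hypoxia-inducible genes, 4 of 7 of the HIF system, 3 of 14 enzymes and 3 of 7 transporters and regulators. Replicate 5 also held the difference of -0.57 between the ends of Gapdh given above, whose part in these values was not tested. When replicate 2 was left out, 11 of 37 members (29.7%) were lower in limma, against 9.40% of all genes, and 0 were higher, against 7.11%. Besides Egln3 and Pfkfb3 these were Slc2a1 (-1.41, adjusted p = 0.00576), Pfkl (-0.77, 0.00662), Bnip3 (-0.80, 0.00725), Eno2 (-1.33, 0.00751), Pdk1 (-0.51, 0.0158), Ndrg1 (-0.68, 0.0197), P4ha2 (-0.71, 0.0286), Tpi1 (-0.39, 0.0339) and Pkm (-0.32, 0.0438). These calls rest on leaving out the sample that lay nearest to the naive group, which widens differences, and are given as a measure of how much this sample decides. They are not particular to the members. The same setting called 12 lower and 3 higher of 47 further hypoxia-inducible genes, and 7 of 8 chondrocyte and 5 of 6 nucleus pulposus markers lower. Over the pathway lists given below, replicate 2 was the highest immunized sample in 4.00% (pyruvate entry and TCA cycle) to 57.1% (glucocorticoid-inducible) of genes. With limma's array weights, which give less weight to arrays that scatter, 17 of 37 members were lower and 2 of 37 (Pfkfb4 and Slc16a1) higher. Of all 18193 genes 3405 (18.7%) were then lower and 2495 (13.7%) higher, against 851 and 812 without weights.

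Markers of other cell types moved with these values. The 8 chondrocyte markers had a mean of 0.43 to 0.70 in naive samples, of 0.23 in immunized replicate 2 and of -0.96 to -0.28 in the other immunized samples, and replicate 2 was the highest immunized sample in all 8. Of these markers 4 fell in limma, among them Col11a2, a chain of type XI collagen (-1.26 ± 0.27, adjusted p = 0.0306), and Snorc, a cartilage proteoglycan (-1.30 ± 0.29, 0.0336). The 6 nucleus pulposus markers had means of 0.45 to 0.60 in naive samples, 0.34 in immunized replicate 2 and -0.92 to -0.24 in the other immunized samples. Of these 1, the keratin Krt19, fell in limma (-2.01 ± 0.36, adjusted p = 0.0214). The 8 macrophage markers went the other way, with means of -0.88 to -0.54 in naive samples, 0.02 in immunized replicate 2 and 0.22 to 0.78 in the others, and 5 rose in limma, among which the largest moderated t belonged to the integrin Itgam (1.81 ± 0.29, adjusted p = 0.0164) and Mpeg1, a pore-forming protein of phagocytes (1.39 ± 0.24, 0.0195). The part of these cell types in the differences of the members was not tested.

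**Figure D4:**
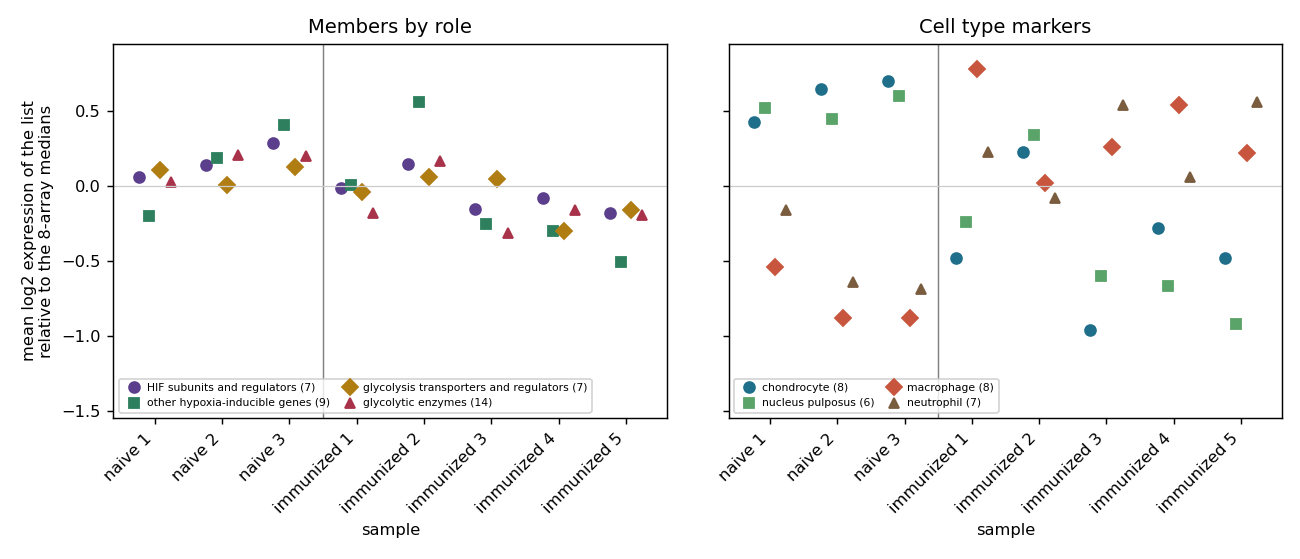
Mean log2 expression, above or below the 8-array medians (vertical axis), of the members by role (left) and of 4 lists of cell type markers (right) in each sample, with the number of genes in brackets. Immunized replicate 2 has the highest mean of the other hypoxia-inducible genes (0.56) and, of the immunized samples, the highest chondrocyte mean (0.23) and the lowest macrophage mean (0.02).

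Markers of other tissues gave 3 of 7 neutrophil genes higher, Cxcr2 (1.54 ± 0.34, limma adjusted p = 0.0326) and S100a9 (0.40 ± 0.09, 0.0361) among them, and 1 of 5 osteoblast genes lower, the phosphatase Alpl (-0.68 ± 0.16, 0.0367). In limma 0 of 6 erythroid, 0 of 7 endothelial and 0 of 4 adipocyte markers passed. Unadjusted, 1 erythroid and 2 endothelial markers were higher and 0 adipocyte markers passed. Of the immunized samples, replicate 2 was the highest and replicate 5 the lowest in all 4 adipocyte markers. Their mean was -0.36, 0.08 and 0.10 in naive samples and 0.17, 0.57, 0.06, -0.16 and -0.68 in immunized samples. The part of fat tissue in the values of the members was not tested.

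Beyond the members, 47 further genes known to respond to low oxygen were measured, and 4 fell and 2 rose in limma (12 lower and 7 higher unadjusted). Over all genes the shares were 4.68% lower and 4.46% higher (18.2% and 12.9% unadjusted). The median difference of the 47 genes was -0.06, near that of all genes. The carbonic anhydrase Car9, a standard HIF-1 target, was at 0.73, 0.47 and 0.82 in naive samples and at -0.39, 0.39, -0.49, -0.89 and -0.76 in immunized samples. The groups did not overlap, although immunized replicate 2 again lay close to the naive samples, and Car9 fell (-1.10 ± 0.26, adjusted p = 0.0370). The other falls were the scaffold gene Ppfia4 (-0.85 ± 0.15), the clock repressor Bhlhe41 (-0.65 ± 0.15) and the transcription factor Zfp395 (-0.71 ± 0.16). The chemokine receptor Cxcr4 of leukocytes (0.97 ± 0.23) and Ero1a, the oxidase of protein folding (0.67 ± 0.16), rose. Car9 and Ero1a were named after their values were seen, as the remaining calls of this list.

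Of 17 further genes that act on the HIF pathway, 2 fell and 1 rose in limma, with a median of 0.06. Usp20, a deubiquitinase reported to protect HIF-1 alpha, fell by 0.40 ± 0.08 (adjusted p = 0.0238), and Arnt2, a relative of Arnt, fell by 0.32 ± 0.08 (0.0485). The chaperone Hsp90aa1, which serves HIF-1 alpha among many proteins, rose by 0.83 ± 0.20 (0.0416).

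Of 18 further glycolysis genes 2 rose and 0 fell in limma (6 higher and 2 lower unadjusted), with a median of 0.04. These were the pyruvate and lactate transporter Slc16a7 (0.77 ± 0.15, adjusted p = 0.0240) and the phosphoglucomutase Pgm2 (0.55 ± 0.11, 0.0277). In the pentose phosphate pathway, which makes NADPH and ribose from glucose, 2 of 8 genes rose and 0 fell (5 higher and 0 lower unadjusted), with a median of 0.41. Rpe (0.73 ± 0.15, adjusted p = 0.0274) and transketolase, Tkt (0.46 ± 0.11, 0.0442), were lowest of the immunized samples in replicate 2 and replicate 4 respectively and higher in all immunized than in all naive samples. Macrophage and neutrophil markers were also higher in immunized discs. In immunized replicates 1 to 5, Rpe was at 0.23, -0.02, 0.58, -0.01 and 0.37 and Tkt at 0.11, -0.03, 0.36, -0.06 and 0.32. The neutrophil markers had means of 0.23, -0.08, 0.54, 0.06 and 0.56, a like order. The macrophage markers had means of 0.78, 0.02, 0.26, 0.54 and 0.22, a different order. The part of these cells in the rise was not tested.

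Of 16 genes of gluconeogenesis and glycogen 1 rose and 0 fell in limma (2 higher and 2 lower unadjusted), and the median was -0.21, with 10 differences below 0. Without immunized replicate 2 the counts were 1 higher and 4 lower. The gene that rose was Pygl, the glycogen phosphorylase of liver and leukocytes (0.85 ± 0.18, adjusted p = 0.0307). Of 25 genes of pyruvate entry and the TCA cycle, 0 passed limma's adjusted threshold. Unadjusted, 2 were lower and 0 higher, and the median was 0.01. Among 14 glucocorticoid-inducible genes, a group to which Ddit4 also belongs, 2 rose and 0 fell: the transcription factors Nfil3 (1.30 ± 0.11, limma adjusted p = 0.00648) and Cebpd (0.54 ± 0.13, 0.0419). Nfil3 is known for circadian and immune regulation and Cebpd for the acute phase response. All naive samples of Nfil3 lay far below the immunized samples, 2 of them at -1.18 and -1.37, and the immunized samples lay between -0.03 and 0.30.

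Of the 16 genes named from these pathway lists, Nfil3 alone passed in all 8 settings that left out 1 sample, with an adjusted p of at most 0.0453 in limma. The other 15 passed in only 1 to 4 of those 8 settings. All 15 lost their call without naive replicate 1, 2 or 3 and without immunized replicate 1, and Bhlhe41, Cxcr4, Car9, Arnt2 and Cebpd passed in 1 setting each, that without immunized replicate 2. Each of the 16 kept its sign in all 18 alternative settings, and 9 passed after quantile normalization. The 8 marker genes named above kept their signs in those settings too, but 4 passed after quantile normalization and none passed in all settings that left out 1 sample. Snorc passed in 1 of the 8, Cxcr2, S100a9, Col11a2 and Alpl in 2, Krt19 in 4, and Itgam and Mpeg1 in 5.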

How the data were processed

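The authors deposited log2 values, 1 for each probe set on each Affymetrix array. The submitters' processing notes name RMA (robust multi-array averaging), without a version. Every probe set has an 8-array median of 0, within 5.0e-07, so it was centred, a step the labels do not record. It removes levels and keeps differences between groups. The log base is taken to be that of RMA. Array medians ran from -0.012 to 0.016. Precision is limited by the 8 arrays.

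Of 45101 probe sets, 64 controls were left out, 34945 named 1 gene, 932 several and 9160 none. Symbols were looked up by gene identifier in RefSeq (GRCm38.p6), which changed 0, and 162 without a match were kept. Probe sets of several genes were not used. A gene was the mean of its probe sets.

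All 18193 genes were fitted in limma 3.58.1 under R 4.3.3 (two-sided, without covariates). Titles give the replicates as separate samples, so p-values measure the spread between these samples. The procedure was tested on simulated data with independent noise in every gene and sample. Such data hold no shift shared by many genes of a sample, so the simulation cannot check calls against such shifts. Members, lists and tests were chosen with earlier results of these data known. Any member could be named, and of each pathway list up to 4 genes and of each marker list up to 2, those past the threshold with the largest moderated t. Promoters followed the rule given beside them. Some lists share genes: Eno3 and Pygm are also muscle markers, Car12 a nucleus pulposus marker and Tfrc an erythroid one. Pathway lists overlap too: Gbe1 and Gys1 are in the glycogen list and in that of further hypoxia-inducible genes. Angptl4 is in the latter and in the glucocorticoid list, and Pdk4 in the TCA cycle and glucocorticoid lists. Alternatives were quantile normalization, centring of arrays, choices of probe sets, a trended (by level class) and robust variance, array weights, the replicate block, left-out samples and other thresholds.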

Additional observations from a re-analysis of the deposited data

How the results depend on the processing

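Of 665 member differences recomputed in 18 alternative settings, 591 kept their direction and their side of the threshold, 26 passed only in the alternative, 14 lost their call and 34 changed sign. No difference that changed sign had passed limma's threshold, and 26 of 37 members never changed sign. The cause of these changes was not tested. The 3 naive samples and the lost levels limit what can be called.

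In limma 812 genes were higher and 851 lower, with 0 and 2 of the members (1 and 13 unadjusted). Quantile normalization gave 540 and 368 genes and 1 lower member, the highest level class 1 lower member, and array weights 2495 and 3405 genes with 2 higher and 17 lower members. An adjusted p under 0.1 gave 1631 and 2152 genes and 7 lower members, and one under 0.01 gave 41 and 13 genes and 0 members. Without both samples with joined numbers limma called 0 genes higher and 0 lower (1621 and 2173 unadjusted), and 0 members (0 and 5 unadjusted). Leaving out 1 sample gave 17 to 1293 higher and 4 to 1710 lower genes, the lowest counts without naive replicate 2 and the highest without immunized replicate 2, and 0 to 11 lower members.

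The deviations of same-numbered naive and immunized samples correlated over genes at -0.047, 0.243 and -0.101 (replicates 1, 2 and 3). The labels do not pair the samples and only the pair of replicates 2 was above 0.1, so the numbers were not taken as pairs. Not every sample correlated best with its own number. With the replicate block limma called 6 genes higher and 1 lower (1845 and 2057 unadjusted) and 0 members (1 and 7 unadjusted), with an adjusted p of 0.0871 for Egln3 (-0.96) and 0.176 for Pfkfb3. Pfkp (0.24), Adm (0.24), P4ha1 (0.11), Ankrd37 (0.15), Vhl (0.01) and Kdm3a (0.05) changed sign. The median of the 9 other hypoxia-inducible genes was then 0.05.

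Without both joined samples the sign changed in Pfkp (0.12), Pgam1 (0.02), Adm (0.09), Ankrd37 (0.11), Arnt (0.01) and Vhl (0.02). It changed in Adm after quantile normalization (0.06) and with array weights (0.06), and in Ddit4 (-0.10 and -0.28). With 1 sample left out the differences that changed sign ran from -0.19 to 0.02 in Hk2, -0.30 to 0.13 in Pfkp, -0.10 to 0.01 in Pgam1, -0.24 to 0.05 in Ldhb, -0.27 to 0.13 in Adm, -0.48 to 0.01 in P4ha1, -0.22 to 0.10 in Ankrd37, -0.13 to 0.01 in Arnt, -0.12 to 0.02 in Vhl, -0.09 to 0.01 in Kdm3a and -0.64 to 0.59 in Ddit4.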
